A study of Mus musculus with 2 samples.

Results

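The genes described here encode the Toll-like receptors (TLRs) of the cell surface, Tlr1, Tlr2, Tlr4, Tlr5 and Tlr6, and their co-receptors Cd14, Ly96, Cd180 and Ly86. These 9 genes were taken by symbol from probe sets that the platform annotation gives to exactly 1 gene, and 8 of them were measured, of 19935 genes in all. Tlr5, the flagellin receptor, had no single-gene probe set in that annotation and was not analysed here. Each of the other 8 had 1 such probe set, so no member was chosen among alternatives and none could be checked against a second probe set.

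Splenic dendritic cells (DCs) of wild-type C57BL/6 mice, aged 8 weeks, were obtained by flow cytometry and cultured either with vehicle or with IL-27, a cytokine of the IL-12 family. The control sample is also called medium in its title, and the time in culture is labelled only "ON". The markers used to isolate the cells, and the numbers of mice and cultures behind each sample, are not stated in the labels. Each condition was read on 1 array, so every value below is a single reading and no SD, standard error or p-value can be given.

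TLRs bind conserved microbial structures and signal through TIR domain adaptors to NF-kB and interferon regulatory factors. Surface TLRs work as complexes. Tlr2 pairs with Tlr1 for triacylated and with Tlr6 for diacylated lipopeptides, while Tlr4 needs MD-2, encoded by Ly96, to bind lipopolysaccharide (LPS) that Cd14 hands over. RP105, encoded by Cd180, is a TLR-like protein without a TIR domain that is carried by its own MD-2 relative MD-1, encoded by Ly86. RP105 is abundant on B cells and is found on DCs and macrophages, where it can restrain TLR4 signalling.

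The upstream sequences of the genes that encode the TLR2 complex are shown because these genes had unequal differences. Tlr1 was past 2-fold, and Tlr2 lay near the median of genes of its level. IL-27 also signals through STAT factors. Windows of 250 bases before to 50 after a start site came from RefSeq (build GRCm38.p6). They were searched for 6 of the 9 members, and none was searched for Tlr4, Ly96 or Cd14. Capitals mark matches, on either strand, to the STAT motif TTCNNNGAA, the interferon response motif (ISRE), the PU.1 motif GAGGAA, the AP-1 motif TGANTCA and the kappaB motif. Each sequence runs 5′ to 3′ along the gene's own strand, which is the minus strand for these genes.
Tlr1, chr5:64933509-64933808: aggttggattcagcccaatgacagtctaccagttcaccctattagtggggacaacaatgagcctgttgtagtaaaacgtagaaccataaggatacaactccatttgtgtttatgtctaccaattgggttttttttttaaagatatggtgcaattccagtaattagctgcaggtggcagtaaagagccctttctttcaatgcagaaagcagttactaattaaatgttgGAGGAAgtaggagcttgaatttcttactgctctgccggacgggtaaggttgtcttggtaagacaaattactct
Tlr1, chr5:64932650-64932949: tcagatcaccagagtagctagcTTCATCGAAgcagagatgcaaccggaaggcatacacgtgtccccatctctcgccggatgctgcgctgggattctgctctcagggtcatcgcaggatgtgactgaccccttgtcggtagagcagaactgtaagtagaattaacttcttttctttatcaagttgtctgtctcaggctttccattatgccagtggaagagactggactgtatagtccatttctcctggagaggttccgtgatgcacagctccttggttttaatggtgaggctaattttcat
Tlr6, chr5:64959117-64959416: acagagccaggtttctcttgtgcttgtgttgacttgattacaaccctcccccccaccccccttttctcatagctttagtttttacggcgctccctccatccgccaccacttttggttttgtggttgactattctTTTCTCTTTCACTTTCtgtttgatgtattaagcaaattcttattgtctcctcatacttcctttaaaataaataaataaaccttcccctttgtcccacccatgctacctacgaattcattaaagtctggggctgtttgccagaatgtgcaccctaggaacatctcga
Tlr6, chr5:64959999-64960298: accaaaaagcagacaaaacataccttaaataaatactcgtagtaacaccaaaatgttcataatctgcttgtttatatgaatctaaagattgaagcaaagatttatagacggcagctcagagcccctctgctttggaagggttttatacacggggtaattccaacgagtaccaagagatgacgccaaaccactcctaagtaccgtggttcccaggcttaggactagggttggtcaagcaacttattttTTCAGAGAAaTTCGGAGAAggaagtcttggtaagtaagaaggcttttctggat
Tlr2, chr3:83841559-83841858: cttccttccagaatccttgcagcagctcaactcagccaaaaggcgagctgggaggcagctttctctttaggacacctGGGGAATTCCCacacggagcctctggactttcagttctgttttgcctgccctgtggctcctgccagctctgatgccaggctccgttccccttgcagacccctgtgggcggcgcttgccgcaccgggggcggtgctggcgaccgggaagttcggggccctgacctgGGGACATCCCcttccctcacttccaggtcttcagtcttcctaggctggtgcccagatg

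The STAT motif was in 1 window of Tlr1 and in 1 window of Tlr6, which together are 2 of the members' 9 windows, against 8.30% of all 32851 windows in the table. Its 2 copies in the Tlr6 window lie beside each other, with first bases at -3 and 8 from the start site. The other Tlr6 window held 2 overlapping matches to the interferon response motif on the opposite strand, a motif found in 3.44% of all windows. The PU.1 motif, that of a myeloid transcription factor, was in the other Tlr1 window (28.3% of all windows). The Tlr2 window held 3 kappaB matches, of which 2 overlap, and 4.51% of all windows held 1 or more. None of these motifs was in the windows of Tlr5, Cd180 or Ly86, whose windows are not shown, and the AP-1 motif, in 7.81% of all windows, was in none of the 9. These matches are letters in a window and do not show that a factor binds there.

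Both arrays were compared as deposited, on the log2 scale, as the IL-27 value minus the vehicle value. A gene was called lower or higher at a 2-fold difference, provided that its brighter reading reached 96.2, which is the median over both arrays and every probe set. The level that cannot be told from genes not expected in DCs was taken from 1027 olfactory receptor genes, whose 95th percentile, called the olfactory limit below, was 77.3 with vehicle and 129 with IL-27. The arrays did not share a distribution, with median intensities of 92.4 (vehicle) and 98.9 (IL-27) and 75th percentiles of 267 and 215. The median of the olfactory receptor genes was 40.5 with vehicle and 59.0 with IL-27. Among genes over the level minimum the median log2 difference was -0.34, and 70.9% of them lay below 0. Removal of the level trend below means subtraction of a smooth curve of the difference on mean level over all genes.

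All 8 measured surface TLR genes and co-receptors had a lower intensity on the IL-27 array than on the vehicle array, by log2 differences from -0.29 to -1.87 as deposited, though Tlr2 turned to 0.07 with the level trend removed. Tlr4, Cd14 and Tlr1 were lower by the 2-fold rule, Tlr2, Tlr6, Ly96, Cd180 and Ly86 were not, and none was higher. These are 3 of 8 genes, where lower genes made up 13.2% and higher genes 1.52% of the 11140 genes over the level minimum. The median over the 8 genes was -0.94 (1.92-fold lower), against -0.34 over the genes over the level minimum and 0.04 over all genes. With the level trend removed the median of the 8 was -0.80, and only Tlr4 was past 2-fold. In that setting 5.33% of genes bright enough to be called were lower and 3.06% higher. With each array centred on its median, 5 of the 8 were lower, against 16.9% of genes over the level minimum. After quantile normalization the 3 genes were again lower, against 8.21%. By a 1.5-fold rule 6 of the 8 were lower, against 33.7%. With dim values taken at the olfactory limit, 2 of the 8 were lower 2-fold, against 10.2%. The sample is bulk RNA, so fewer cells of a type and less RNA per cell cannot be told apart.

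**Figure D1:**
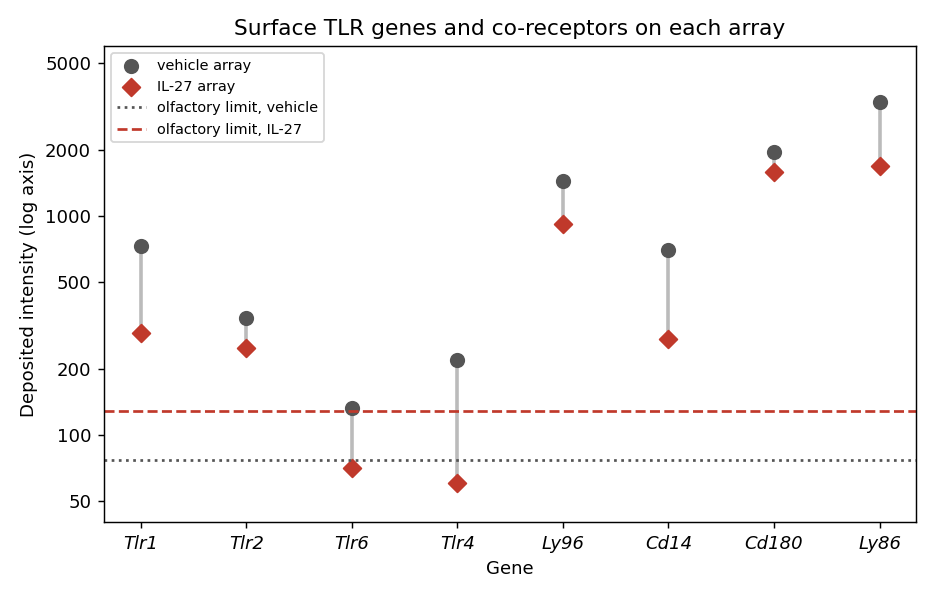
Deposited intensity (log axis) of each measured surface TLR gene and co-receptor on the vehicle array (grey circle) and the IL-27 array (red diamond), with 1 array per condition and the 95th percentile of olfactory receptor genes on each array as lines. Every red diamond lies below its grey circle, and those of Tlr4 (60.2) and Tlr6 (70.6) lie below the IL-27 line at 129.

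**Figure D2:**
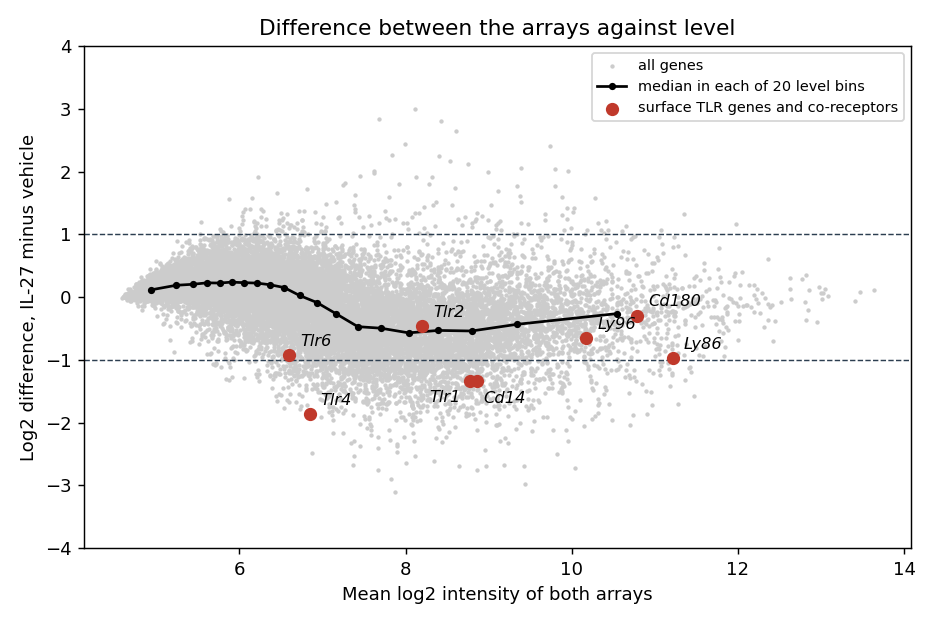
Log2 difference, IL-27 minus vehicle, against mean log2 intensity of both arrays for all 19935 genes (grey), with the median in each of 20 level bins (black) and the 8 measured members (red). Tlr2 and Cd180 lie near the black line, and Tlr4 at -1.87, whose IL-27 reading is within the olfactory range, is plotted farthest below it among the members.

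In the LPS receptor complex, Tlr4 and Cd14 were lower by the 2-fold rule as deposited and Ly96 was not, and the size for Tlr4 rests on a reading within the olfactory range. Tlr4 (probe set 10505517), the signalling chain for LPS, read 219 with vehicle and 60.2 with IL-27, a log2 difference of -1.87 or a 3.64-fold lower value. The IL-27 reading lay within the olfactory range, so Tlr4 was at least 1.69-fold lower when taken against that limit, and the size beyond this is not fixed. Of the 1000 genes nearest to Tlr4 in mean level, 0.1% were at least as low as its deposited difference. Against the olfactory limit its difference was -0.76, and 12.3% of those genes had a deposited difference at least that low. The dim readings of those genes were not themselves taken at the limit, so the second share does not compare like with like. The median deposited difference of the 1000 genes was -0.04. The difference of Tlr4, with its dim reading, stayed between -1.63 and -1.96 under every scaling tried.

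Cd14 (probe set 10458382), the co-receptor that passes LPS to the complex, had 699 with vehicle and 276 with IL-27. That is a difference of -1.34, or 2.54-fold lower, with both readings above the olfactory limits. At its level 8.1% of the nearest 1000 genes were at least as low, with a median of -0.55. With the level trend removed Cd14 stood at -0.85, which is 1.80-fold lower and short of 2-fold.

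Ly96 (probe set 10344966), which encodes the LPS-binding subunit MD-2, had 1448 with vehicle and 922 with IL-27. Its difference of -0.65 (1.57-fold lower) did not pass the 2-fold rule, and 25.4% of genes near its level were at least as low. The 3 genes of this complex had unequal differences. The difference of Tlr4 was larger in size than that of Ly96 by 1.21 on the log2 scale as deposited and by 1.49 with the level trend removed, but by only 0.11 when its IL-27 value was taken at the olfactory limit. Cd14 differed by 0.69 more than Ly96 did, and by 0.52 more with the trend removed.

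Among the lipopeptide receptors, Tlr1 was lower by the 2-fold rule, Tlr6 was just short of it and Tlr2 was not. Tlr1 (probe set 10530145), the partner of Tlr2 for triacylated lipopeptides, read 733 with vehicle and 292 with IL-27, a difference of -1.33 or 2.52-fold lower. Both readings were above the olfactory limits, and 8.4% of the nearest 1000 genes were at least as low. Removal of the level trend left Tlr1 at -0.84, short of 2-fold.

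Tlr6 (probe set 10530151), the partner for diacylated lipopeptides, had 133 with vehicle and 70.6 with IL-27. The deposited difference was -0.92, or 1.89-fold lower, but the IL-27 reading was within the olfactory range, and against that limit the ratio was 1.03. Genes near this level were centred at 0.12, with 5.3% of them at least as low as the deposited difference of Tlr6. By their deposited differences, not taken at the limit themselves, 34.3% were at least as low as that of Tlr6 against the limit. Median centring took Tlr6 to -1.01, past the rule, and removal of the trend to -0.99.

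Tlr2 (probe set 10498992), the subunit common to both lipopeptide receptors, had 344 with vehicle and 251 with IL-27. Its difference of -0.45 (1.37-fold lower) was smaller in size than the median of -0.54 among the 1000 genes nearest in level, of which 57.5% were at least as low. The direction was not held under all scalings, since it was -0.12 after quantile normalization and 0.07 with the level trend removed. Tlr1 differed by 0.88 more than Tlr2 as deposited and by 0.91 more with the trend removed. Tlr1 and Tlr6 are adjacent protein-coding genes in the RefSeq order, and their differences were 0.41 apart as deposited, 0.15 with the trend removed and 1.29 with the IL-27 value of Tlr6 at the olfactory limit.

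The RP105 pair also had unequal differences. Cd180 (probe set 10406928), the TLR-like receptor chain, read 1956 with vehicle and 1596 with IL-27, the smallest difference of the 8 genes at -0.29 or 1.23-fold lower. It lay at the centre of genes of its level, whose median was -0.29, with 49.3% of them at least as low, and it stood at -0.04 with the level trend removed.

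Ly86 (probe set 10404606), which encodes its partner MD-1, had 3326 with vehicle and 1703 with IL-27. Its difference was -0.97, 1.95-fold lower and the nearest outside the 2-fold rule, whereas Tlr1 at -1.33 was the nearest inside it. Of the genes near its level, 11.5% were at least as low. Median centring took Ly86 to -1.06, past the rule, and removal of the trend took it to -0.77. Ly86 differed by 0.67 more than Cd180 as deposited and by 0.72 more with the trend removed.

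**Figure D3:**
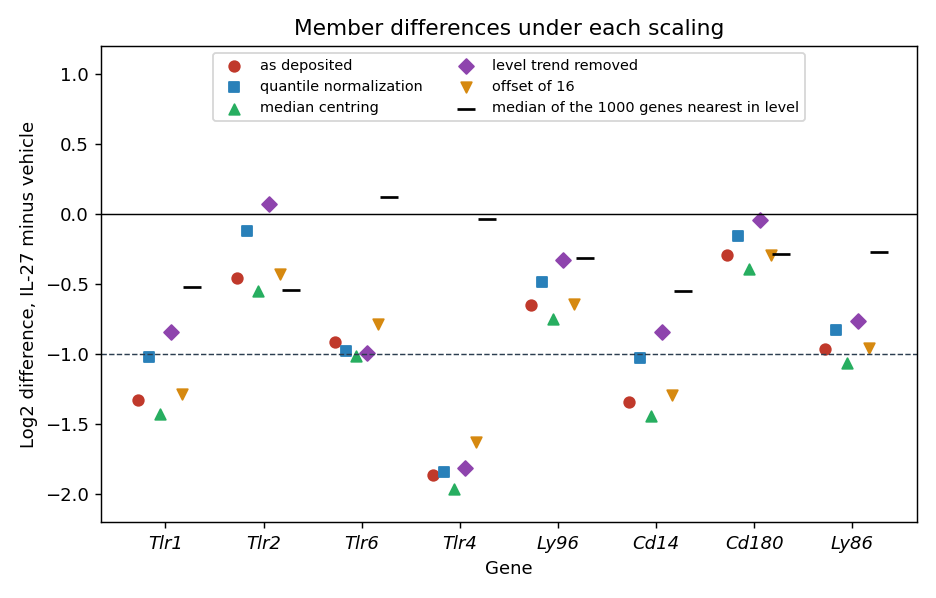
Log2 difference, IL-27 minus vehicle, of the 8 measured members as deposited and under 4 other scalings, with the median of the 1000 genes nearest in level as a black dash and the 2-fold line at -1. Tlr4 stays below -1.6 in all of them, Tlr1 and Cd14 cross the line with the level trend removed, and Tlr2 and Cd180 lie within 0.6 of 0.

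Markers of macrophages and of conventional DCs themselves were lower on the IL-27 array alongside. Of 20 macrophage and monocyte markers over the level minimum, 14 passed the rule downward and 0 upward. Over all genes past that minimum the shares were 13.2% and 1.52%. The summed intensity of the 21 macrophage and monocyte markers measured was 53668 with vehicle and 25468 with IL-27. Csf1r, the receptor for the macrophage growth factor CSF-1, had 3287 and 1395, and Cd163, a haemoglobin scavenger receptor, had 465 and 88.1, the second within the olfactory range. Among type 2 conventional DC markers 9 of 13 over the level minimum were lower, with sums of 14587 and 6405 over 15 genes. Type 1 conventional DC markers were lower in 7 of 14, with sums of 17507 and 9011. With the level trend removed, 12 of the 20 macrophage, 8 of the 13 type 2 and 5 of the 14 type 1 markers were lower. In that setting 5.33% of all genes over the level minimum were lower. The part of these cells in the differences of Tlr4, Cd14 and Tlr1 was not tested.

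Of 15 B cell markers over the level minimum, 3 passed the rule downward and 0 upward, with sums of 5134 and 2936 over 16 genes. The lower share, 20%, stood beside 13.2% of all genes over that minimum. The lower genes were Bank1, an adaptor that DCs can also express (1332 and 332), Cd22, an inhibitory B cell receptor (395 and 123, at least 3.05-fold lower), and Ms4a1, which encodes CD20 (435 and 202). With the level trend removed 2 of the 15 were lower, beside 5.33% of all genes over the level minimum. Blnk, not past the rule, had 306 and 180 (-0.77), and Cd79a, a chain of the B cell receptor, had 185 and 180. The part of B cells in the values of Cd180 and Ly86 was not tested. Neutrophils, which carry Tlr2, Tlr4 and Cd14, gave 14 measured markers, with sums of 1137 and 976. The median difference of these 14 was 0.30, with 11 above 0 and 3 below. Of the 14, 10 were below the level minimum, and S100a9, 1 of the other 4, had 79.4 and 137. The remaining 3, Csf3r, Cxcr2 and Mmp9, were lower, all within the olfactory range with IL-27. Against that limit only Csf3r stayed past 2-fold, at least 2.12-fold lower, while the ratio was 1.24 for Mmp9 and 0.90 for Cxcr2. Markers of DCs in general were present on both arrays, with Itgax, which encodes CD11c, at 3371 and 1829 (-0.88). The median difference of the 12 genes in this list was -0.05, with 8 below 0 and 4 above. Of these DC markers, 4 of 12 were lower, beside 13.2% of all genes over the level minimum. Ptprc, the common leukocyte antigen CD45, had 3106 and 1513, a difference of -1.04 that was -0.82 with the level trend removed.

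The intracellular adaptors and kinases that surface TLRs use were mostly not past the rule. Of 22 measured genes, all over the level minimum, 1 was lower and 0 higher, beside 13.2% and 1.52% of all genes over that minimum. The median of the 22 was -0.20, which turned to 0.04 after quantile normalization and to 0.20 with the level trend removed. Btk, the lower gene, is a tyrosine kinase that also serves the B cell receptor and had 403 with vehicle and 156 with IL-27 (-1.37, or -0.86 with the trend removed). Myd88, the adaptor of all the surface TLRs measured here, had 916 and 566, a difference of -0.70, and Irak1, a kinase it recruits, had -0.81. Tirap, which bridges Tlr2 and Tlr4 to Myd88, had -0.16, which turned to 0.24 with the trend removed. For the second branch of Tlr4 signalling, the bridging adaptor Ticam2 had -0.72 and the adaptor Ticam1, which encodes TRIF, had 0.40. Traf6, the ubiquitin ligase downstream of Myd88, had 580 and 631, or 0.12.

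Genes for the folding and trafficking of TLRs in general and for lipid handling were lower in 4 of 17, all over the level minimum. None was higher. The lower share, 23.5%, stood beside 13.2% of all genes over that minimum. The median of the 17 was -0.56, or -0.22 with the level trend removed. In that setting 3 were lower, beside 5.33% of all genes over the level minimum. Lower as deposited were Scarb1, a lipoprotein scavenger receptor (-1.64), and Itgam, the CD11b integrin chain (-1.47, at least 2.62-fold lower). The others were Lman1, a cargo receptor of the secretory pathway (-1.47), and Unc93b1 (-1.27), which escorts nucleic acid-sensing TLRs from the endoplasmic reticulum. The chaperones that surface TLRs depend on did not pass the rule. Hsp90b1, which encodes gp96, had 2550 with vehicle and 1625 with IL-27 (-0.65), while its TLR co-chaperone Cnpy3 had 872 and 465 (-0.91). Itgam is also among the type 2 DC markers and is carried by many macrophages, and markers of both were lower alongside, as given above.

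Of 19 negative regulators over the level minimum, 1 was higher and 0 lower, beside 1.52% and 13.2% of all genes over that minimum. The median over 22 negative regulators was -0.16, or 0.11 with the level trend removed. Tnip3, a partner of the deubiquitinase A20 that restrains NF-kB, was the higher gene, from 130 with vehicle to 904 with IL-27, a difference of 2.80 or 6.96-fold. The A20 gene itself, Tnfaip3, had 1434 and 984 (-0.54), Irak3, the decoy kinase, had 298 and 181 (-0.72), and Pirb, an inhibitory receptor, had 1898 and 999 (-0.93). Tollip, which damps Irak1, had 0.30.

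Of 31 genes that surface TLR ligands induce through NF-kB and that were bright enough to be called, 4 were lower and 4 higher, and the median over 38 was 0.15. The lower share, 12.9%, is close to the 13.2% of all genes over the level minimum, whereas 1.52% of all those genes were higher. After quantile normalization 1 was lower, beside 8.21% of genes over the level minimum, and 5 were higher. With the level trend removed 1 was lower and 7 were higher, beside 5.33% and 3.06%. The count of higher genes was 1 with median centring and 2 with an offset of 16. Against the olfactory limit 3 of the 4 higher genes stayed past 2-fold. Ptgs2, the prostaglandin-forming enzyme, read 3257 with vehicle and 889 with IL-27 (-1.87), while Nfkbiz, a nuclear IkB protein, had -1.12. Il1rn, the IL-1 receptor antagonist, had 1.51 and Ccl22, a chemokine, 1.09. Tnf had 466 and 784 (0.75, or 1.19 with the trend removed), and Nfkbia, which encodes IkB-alpha, had -0.21. Il12b, a subunit of IL-12, had -0.29, which turned to 0.10 with the trend removed.

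Genes reached from Tlr4 through TRIF and IRF3, most of which type I interferon also induces, were lower in 5 of 13 over the level minimum and higher in 1. Over all genes past that minimum the shares were 13.2% and 1.52%. The median over the 16 genes measured in this list was -0.57, or -0.25 with the level trend removed. In that setting 3 were lower, beside 5.33% of all genes over the level minimum. Ifit3 had 501 and 138 (-1.86), Usp18, which blocks interferon signalling, had -1.64, and Ifit2 was at least 1.78-fold lower. Oasl1, a relative of the 2′-5′ oligoadenylate synthetases, was the higher gene at 1.47.

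The endosomal TLRs were lower in 5 of 6 measured, and in 4 of 6 against the olfactory limit, beside 13.2% and 10.2% of genes over the level minimum. Their deposited median was -1.92, set beside -0.94 for the surface genes, and the difference between these lists was not tested. Tlr9 was the exception, at 929 with vehicle and 879 with IL-27 (-0.08, or 0.29 with the level trend removed), and the others were lower, with IL-27 readings within the olfactory range for Tlr3, Tlr8 and Tlr12. Tlr8 was at least 5.30-fold and Tlr12 at least 1.27-fold lower.

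**Figure D4:**
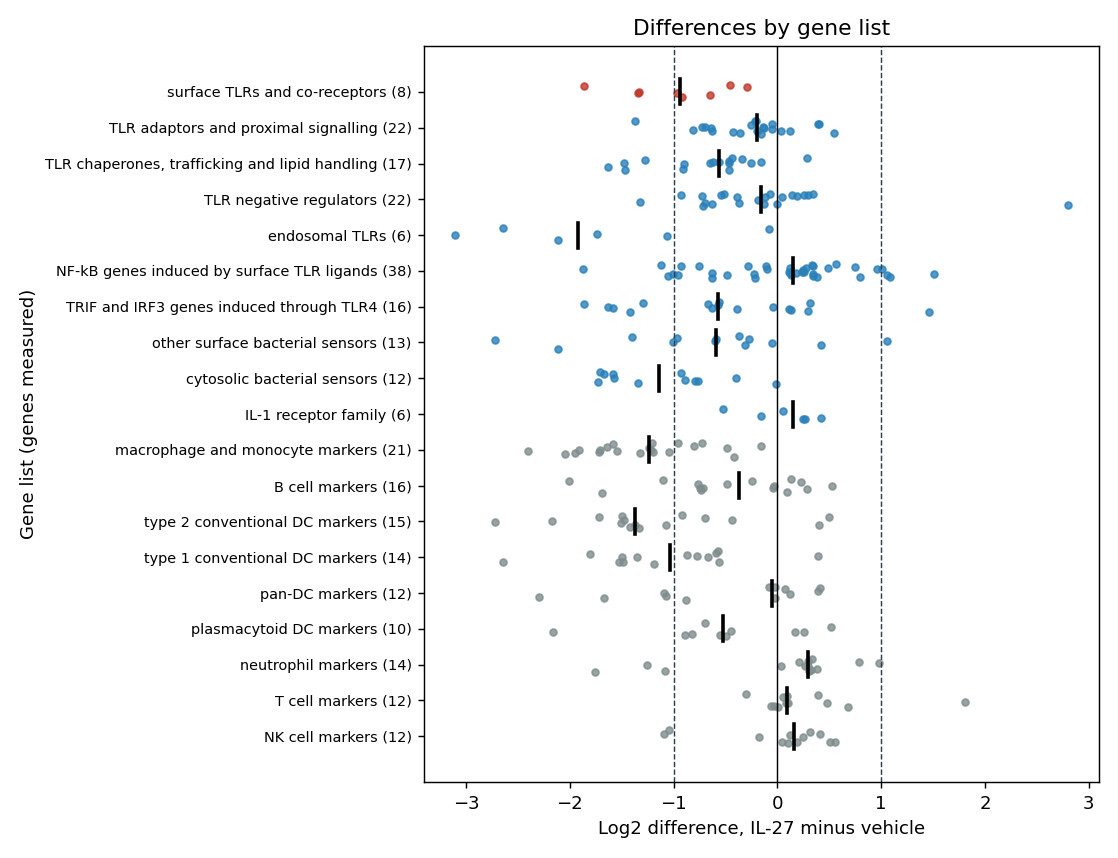
Log2 difference, IL-27 minus vehicle, of every measured gene in the surface TLR group (red), the fixed TLR pathway and sensor lists (blue) and the marker lists of cell types (grey), with list medians as black bars and 2-fold lines at -1 and 1. As deposited, the surface genes all lie below 0 with a median of -0.94, the adaptors centre at -0.20, and the macrophage markers centre at -1.24.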

How the data were processed

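Arrays were deposited as 1 linear intensity for each of 28815 probe sets. Per the labels' protocols, RNA was fragmented and biotinylated with an Affymetrix kit and hybridised by a service provider. How the authors corrected, summarised and normalised the intensities is not stated in what was used here. The submitters' processing notes name the build mm8.

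GEO's platform annotation named the probe sets (21780 with 1 gene, 1605 with several, 5430 unnamed here), and 21689 of the first kind matched a RefSeq gene ID, which changed 0 symbols. A gene with several probe sets was represented by the brightest. Values were compared as log2 without a pseudocount. With 1 array per condition no test was possible and precision is limited by that number. The alternatives tried were quantile normalization, centring on the median, subtraction of a lowess curve on level (span 0.3), an offset of 16, other level minimums, a 1.5-fold rule and averaged probe sets. Named genes were the members, the endosomal TLRs, the up to 4 genes of each list with the largest difference over the level minimum, and a short set taken whatever its values, in which Irak4 had no single-gene probe set. Csf1r, Cd79a, Nod2, Casp4, Klf3 and Fam114a1 were picked once values were known. The members and lists were chosen with earlier results of these data known. The call rule, trend curve and quantile step were run on simulated data. The olfactory limit, the nearest-gene shares and the motif search were not. Python 3.11.15, numpy 2.4.6, pandas 2.3.3 and statsmodels 0.14.6 were used.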

Additional observations from a re-analysis of the deposited data

How the results depend on the processing

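Each value rests on 1 array per condition, so no replicate could be left out and the differences have no measured error. No paired analysis was possible because each group had 1 array. The 8 surface genes were lower by the rule in 3 cases as deposited, beside 13.2% of genes over the level minimum. The count was 5 with median centring (16.9%), 1 with the level trend removed (5.33%) and 6 by a 1.5-fold rule (33.7%). Against the olfactory limit 2 of the 8 remained past 2-fold (10.2%). With the level minimum raised to the 75th percentile, 240, 2 were lower, since Tlr4 at 219 did not reach it. The share of all genes was not computed for that minimum. The members' median stayed below 0 in every alternative run. Of 40 member values under the 5 rescalings, only that of Tlr2 reversed, to 0.073 with the level trend removed. Tlr1 and Cd14 then fell short of the 2-fold rule, and Tlr6 and Ly86 passed it with median centring. Averaged probe sets are 1 of the 5 rescalings. Each member had 1 probe set, so that setting could change no member value, median or count. With that trend removed, the adaptors had 0 lower and 1 higher and a median of 0.20, the negative regulators a median of 0.11, the NF-kB genes 1 lower and 7 higher, the TRIF genes 3 lower and the other surface sensors 0 higher. After quantile normalization the adaptor median was 0.042, the IL-1 receptor family's -0.078, the NF-kB genes had 1 lower and the surface sensors 0 higher. With median centring the negative regulators had 1 lower, the NF-kB genes 1 higher and the surface sensors 0 higher. With an offset of 16 the NF-kB genes had 2 higher and the surface sensors 0. The cause of these shifts was not tested, beyond the level trend that the rescaling itself removes. A list median was said to move past a 1.5-fold shift.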

Other observations

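Of 12 cytosolic bacterial sensors and inflammasome genes, all over the level minimum, 6 passed the rule downward and 0 upward, beside 13.2% and 1.52% of all genes over the level minimum, and the median was -1.14 (-0.67 with the level trend removed). Nod1, which detects a peptidoglycan fragment, had 1060 with vehicle and 320 with IL-27, or -1.73. Naip6, a flagellin sensor, had 671 and 205, though Naip2, Naip5 and Naip6 are closely similar copies whose probe sets may share signal. Nlrc4, which these activate, was at least 1.44-fold lower, and Casp1, the protease of the inflammasome, at least 2.58-fold. Nod2 had 157 and 155 (-0.02, which turned to 0.29 with the trend removed), and Casp4, the intracellular LPS receptor in mice, had 238 and 181 (-0.40, which turned to 0.07).

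Of 11 other surface sensors of bacteria and fungi bright enough to be called, 4 were lower and 1 was higher, and the median over 13 was -0.59. Over all genes past the level minimum, 13.2% were lower and 1.52% higher. Cd209a, a C-type lectin, had 2710 with vehicle and 410 with IL-27 (-2.72), the mannose receptor Mrc1 had 1819 and 419 (-2.12), and Clec4n, which encodes Dectin-2, had 929 and 352 (-1.40). Clec4e, the higher gene, had 63.3 and 131, the first within the olfactory range and the second just over the limit. It was at least 1.70-fold higher, and was short of 2-fold with the trend removed. Clec4e is also 1 of the 4 higher genes among those that surface TLR ligands induce through NF-kB. In a list of IL-1 receptor family and related genes, 0 of 3 over the level minimum passed the rule. Of these only Il1rap (0.27) encodes a receptor chain that shares the TIR adaptors with TLRs. The decoy receptor Il1r2 had 1727 and 2305 (0.42) and Il18bp had -0.52, and both lack a TIR domain.

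Genes beside Tlr1 and Tlr6 in the RefSeq order, chosen after their values were seen, had deposited differences of -0.68 for Klf3, a transcription factor, and -0.38 for Fam114a1, whose IL-27 reading was within the olfactory range.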
